A study of Homo sapiens with 18 samples.

Results

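The genes described here encode 10 transcription factors and adaptor proteins of the erythroid and megakaryocyte network: GATA1, GATA2, TAL1, LMO2, LDB1, KLF1, GFI1B, ZFPM1, NFE2 and RUNX1. They were chosen by symbol, as the GATA1-TAL1-LMO2 complex and its partners, from a count table of 27781 genes. All 10 were found, and all 10 were among the 15678 genes that passed the filter on low counts.

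GATA1 and GATA2 are zinc finger proteins that bind GATA motifs. In red cell and platelet precursors they can sit next to TAL1, a basic helix-loop-helix factor that binds E-boxes together with an E protein, and the adaptors LMO2 and LDB1 hold the DNA-binding proteins in a single complex that can bridge enhancers and promoters. ZFPM1 (FOG1) is a GATA cofactor, GFI1B a zinc finger repressor that recruits histone-modifying enzymes, KLF1 an activator of globin and other red cell genes, NFE2 a basic leucine zipper factor that works as a dimer with a small MAF protein, and RUNX1 a runt-domain factor needed for stem cell emergence and platelet formation. The balance among these factors is known to separate the red cell from the megakaryocyte fate.

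RNA came from K562 cells, an established human leukemia line with the BCR-ABL1 fusion that can be driven towards red cell or megakaryocyte traits. According to the treatment protocol, cells of the knockdown group were transfected with gapmers (as background, antisense oligonucleotides that direct RNase H to a paired RNA), aimed at the junction of the circular RNA circPCMTD1. The scrambled group received gapmers of scrambled sequence, and both groups grew in medium with 10% serum and were collected 48 hours after transfection. Total RNA was depleted of ribosomal RNA and sequenced with a strand-marking kit. A group held 9 libraries, namely 3 technical libraries from each of 3 biological replicates, and those of a replicate were summed. A library such as 3_2 is technical library 2 of replicate 3. The sample descriptions say siRNA where the protocol says gapmer, and this was not resolved. All samples are from a single cell line, and the labels do not say how many gapmer sequences were used.

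Libraries held 19118533 to 29432699 counts and the summed replicates 63851576 to 76087774, so a member had between 3992 and 20076 counts in a sample. PCMTD1, the host gene of the target on chromosome 8, was at 20.6 ± 1.13 CPM (counts scaled to library size; SD, n = 3) in scrambled and 12.3 ± 0.515 CPM in knockdown samples, a log2 fold change of -0.74 (adjusted p = 7.57e-10, edgeR). Its gene-level count mixes linear and circular RNA and does not measure the circular RNA alone. The labels call the cells lymphoblasts. All 10 erythroid marker genes examined were above 1 CPM, with summed levels of 14915 to 15233 CPM in scrambled and 15672 to 16543 CPM in knockdown samples. Of 10 B cell markers 2 were above 1 CPM (RAG1 and CD22) and MS4A1, VPREB1 and DNTT had no count, and of 12 T and NK cell markers only CD3D was above 1 CPM. Of 8 megakaryocyte markers ITGA2B, ITGB3 and TUBB1 were above 1 CPM, while PF4, PPBP, GP9 and GP1BA had 4 counts or fewer over all libraries. Of 16 granulocyte and monocyte markers LYZ, SPI1, ITGAM and AZU1 were above 1 CPM and CTSG had no count. The summed markers of all these other cell types were higher in knockdown samples, at 59.5 to 61.4 against 46.8 to 47.8 CPM for megakaryocytes, 61.9 to 62.3 against 52.6 to 54.2 CPM for granulocytes and monocytes, 14.9 to 16.0 against 12.7 to 13.5 CPM for B cells and 7.31 to 7.69 against 5.05 to 5.63 CPM for T and NK cells. A few genes carried these sums. Of the granulocyte and monocyte sum, LYZ was at 36.4 CPM in scrambled and 45.97 CPM in knockdown samples, while ITGAM was at 3.66 and 2.85 CPM and AZU1 at 1.45 and 1.14 CPM. CD3D (4.67 and 6.43 CPM) made up most of the T and NK cell sum, and RAG1 (7.60 and 9.08 CPM) and CD22 (4.89 and 5.43 CPM) most of the B cell sum. Their part in the results below was not tested, and in RNA from whole cultures a change in the number of cells of a type and in RNA per cell cannot be told apart.

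The members spanned a wide range of abundance. To compare genes, CPM were divided by the summed length of all annotated exons. GATA1 stood highest at 149 ± 2.82 CPM per kb in scrambled cells (SD, n = 3). By its mean over the samples of both groups, GATA1 was above 98.8% of tested genes with an annotated length on that scale. NFE2 followed at 96.2 ± 1.82 CPM per kb, LDB1 at 94.5 ± 1.26 and KLF1 at 86.1 ± 0.633. The ranges of NFE2 and LDB1 overlapped, so their order is not resolved. A step down came TAL1 at 44.1 ± 0.603 CPM per kb and GATA2 at 36.2 ± 0.36. LMO2 was at 19.4 ± 0.512, GFI1B at 15.7 ± 0.166 and ZFPM1 at 12.5 ± 0.182 CPM per kb. RUNX1 was lowest at 8.80 ± 0.0242 CPM per kb, over the 15.574 kb of its many annotated exons, and at 137 CPM without the division by length. The order of the 10 genes was the same in knockdown cells, where the ranges of LDB1 and KLF1 overlapped too.

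**Figure D1:**
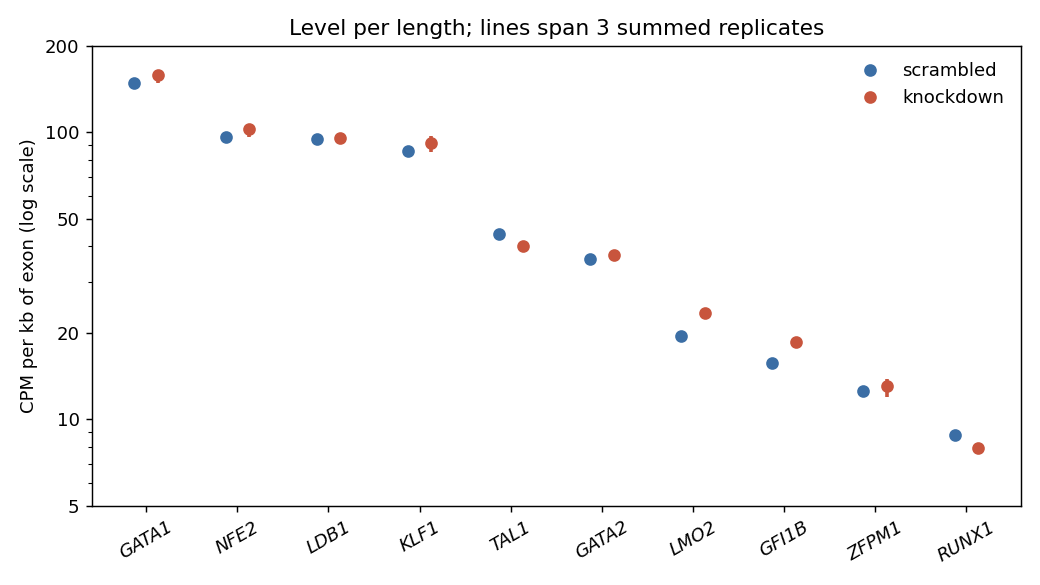
Level of each gene in CPM per kb of annotated exon (vertical axis, log scale), in scrambled (blue) and knockdown (red) samples. Points are means of 3 summed replicates and lines span the replicates, and the genes run from GATA1 at 149 to RUNX1 at 8.80 CPM per kb in scrambled cells.

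Between knockdown and scrambled cells, the adaptor gene LMO2 rose by 20.3% and the repressor gene GFI1B by 18.4%, TAL1 fell by 8.75% and RUNX1 fell by 9.79%, and the other 6 did not pass the test. Calls rest on edgeR's quasi-likelihood test, with p adjusted over all 15678 genes and a threshold of 0.05. The 4 calls among 10 members stand beside 18.6% called among all genes tested, with 2 raised where 11.1% of all genes were raised and 2 lowered where 7.49% were lowered. Genes at 50 CPM or more on average, where all the members lie, were called in 21.04% of cases. For 4 members the 3 knockdown values did not overlap the 3 scrambled values, as for 34.6% of all genes. The median log2 fold change was 0.07 over the members and 0.00221 over all genes, and the median absolute change was 0.0912 and 0.0809. The members were chosen with earlier results of these data known, so these shares and medians describe them and do not test them.

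LMO2 encodes the LIM-only adaptor at the centre of the complex and lies on the minus strand of chromosome 11 (33858576 to 33892289, GRCh38). It stood at 62.2, 59.6 and 59.3 CPM in the 3 scrambled replicates and at 73.0, 73.0 and 72.0 CPM in the knockdown replicates. Every knockdown replicate was above every scrambled replicate. The group means were 60.4 ± 1.59 and 72.7 ± 0.608 CPM (SD, n = 3), a log2 fold change of 0.27 (SE 0.0323, edgeR adjusted p = 4.07e-06). Among the single libraries the scrambled values ran from 56.2 to 66.1 CPM (median 60.0) and the knockdown values from 69.5 to 76.0 CPM (median 73.1). Thus 9 of 9 knockdown libraries lay above all 9 scrambled ones, and 10.1% of all tested genes rose as far or further.

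GFI1B encodes a zinc finger repressor needed for both red cell and platelet maturation and lies on the plus strand of chromosome 9 (132944000 to 132991687). Its replicates were at 96.5, 96.0 and 94.6 CPM in scrambled cells and at 115, 114 and 111 CPM in knockdown cells. The groups did not overlap, and 9 of 9 knockdown libraries (108 to 118 CPM) again lay above the scrambled ones (92.9 to 98.4 CPM). Means of 95.7 ± 1.01 and 113 ± 2.14 CPM (SD, n = 3) gave a log2 fold change of 0.24 (SE 0.0299, edgeR adjusted p = 4.86e-06). Exons of GFI1B share 349 bases with TSC1 on the opposite strand, and the strand setting of the counting is not given in the sources used here. TSC1, an inhibitor of mTORC1 signalling, was itself lower in knockdown cells, at 52.4 ± 0.775 against 56.0 ± 1.05 CPM (log2 fold change -0.10, edgeR adjusted p = 0.0463).

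TAL1 encodes the helix-loop-helix subunit of the complex and lies on the minus strand of chromosome 1 (47216290 to 47232220). It was at 254, 251 and 248 CPM in scrambled and at 232, 228 and 227 CPM in knockdown replicates. All knockdown replicates were lower, and so were all single libraries, with 227 to 233 CPM against 246 to 259 CPM. Means of 251 ± 3.44 and 229 ± 2.50 CPM (SD, n = 3) gave a log2 fold change of -0.13 (SE 0.0256, edgeR adjusted p = 0.000822). TAL1 exons share 845 bases with the antisense gene AL135960.1, for which no count was matched here.

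RUNX1 lies on the minus strand of chromosome 21 (34787801 to 36004667). It was at 137.3, 136.6 and 137.2 CPM in scrambled and at 122.9, 123.6 and 124.3 CPM in knockdown replicates. No knockdown replicate reached the scrambled range, and the single libraries were apart as well, at 122 to 129 CPM (median 122) against 132 to 143 CPM (median 136). Means of 137 ± 0.377 and 124 ± 0.681 CPM (SD, n = 3) gave a log2 fold change of -0.15 (SE 0.0279, edgeR adjusted p = 0.000591). Of all tested genes, 11.6% fell as far or further, and 13.3% fell as far as TAL1.

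**Figure D2:**
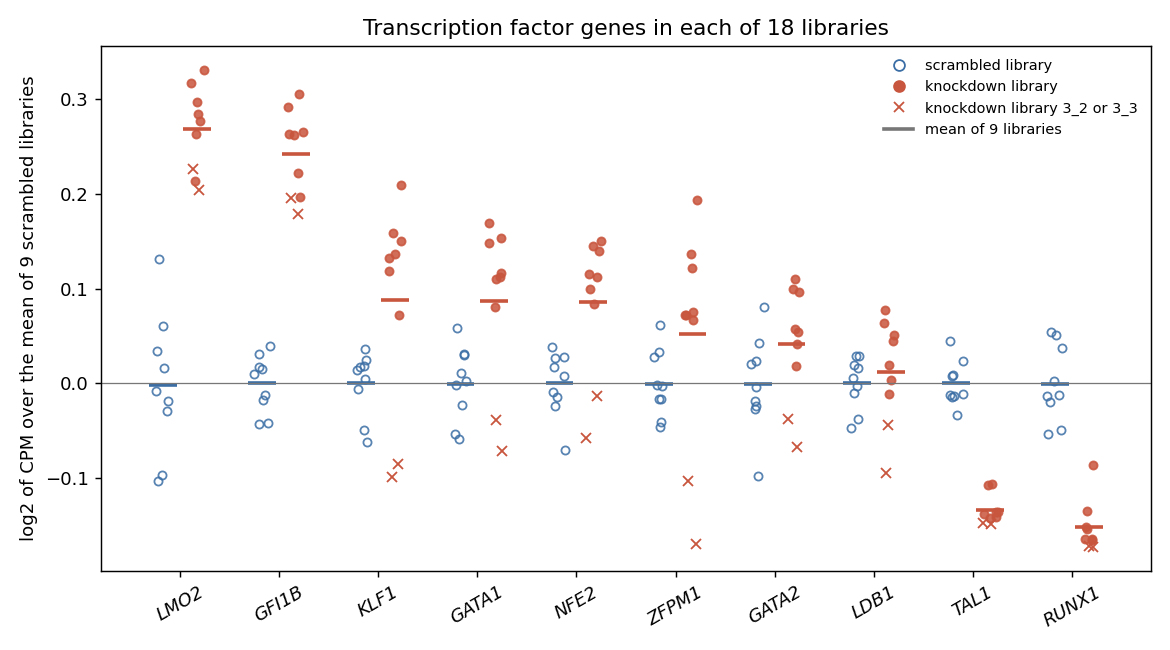
Each gene in each of 18 libraries, as log2 of CPM over the mean of the 9 scrambled libraries (vertical axis), with scrambled libraries in blue, knockdown libraries in red and bars for group means. All 9 knockdown libraries lie above the scrambled ones for LMO2 and GFI1B and below them for TAL1 and RUNX1, while crosses (knockdown libraries 3_2 and 3_3) lie below the other knockdown libraries for all genes except LMO2, by the least for GFI1B, TAL1 and RUNX1.

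The levels of the members can also be set against each other within a sample. Per kb of exon, TAL1 stood at 2.23, 2.30 and 2.27 times LMO2 in the scrambled replicates and at 1.73, 1.70 and 1.72 times LMO2 in the knockdown replicates. LDB1 stood at 4.87 ± 0.108 times LMO2 in scrambled and at 4.08 ± 0.0736 times in knockdown cells (SD, n = 3). The ratio of GATA2 to GATA1 was 0.244 ± 0.00323 and 0.237 ± 0.00272, with scrambled values from 0.242 to 0.247 and knockdown values from 0.234 to 0.239. RUNX1 stood at 0.0592 ± 0.000971 times GATA1 in scrambled and 0.0503 ± 0.00291 times in knockdown cells. The values did not overlap between groups for any of these 4 ratios, the only ones computed. Single genes did not overlap in 34.6% of cases, and 3 of the 4 ratios hold a called member, while neither GATA1 nor GATA2 was called. The ratios combine values already given and were not tested.

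GATA1, on chromosome X (48786554 to 48794311), was at 227, 219 and 223 CPM in scrambled and at 245, 243 and 223 CPM in knockdown replicates. Knockdown replicates 1 and 2 were above the scrambled range and replicate 3 was inside it. The log2 fold change of 0.09 (SE 0.0318) had an adjusted p of 0.0547 in edgeR. NFE2, on chromosome 12 (54292111 to 54301121), had the same layout, with 242, 238 and 233 CPM in scrambled and 260, 259 and 238 CPM in knockdown replicates (log2 fold change 0.09, SE 0.0311, edgeR adjusted p = 0.0507).

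KLF1, on chromosome 19 (12884422 to 12887199), was at 140, 138 and 138 CPM in scrambled and at 150, 156 and 137 CPM in knockdown replicates. Replicate 3 of the knockdown lay below the whole scrambled group, and the adjusted p was 0.0731 (log2 fold change 0.09, SE 0.0358, edgeR). ZFPM1, on chromosome 16 (88453317 to 88537016), had 77.5, 75.3 and 76.7 CPM against 81.6, 84.2 and 73.3 CPM, again with knockdown replicate 3 lowest of all 6 samples (log2 fold change 0.06, SE 0.0397, edgeR adjusted p = 0.337). GATA2, on chromosome 3 (128479427 to 128493185), had 163, 161 and 160 CPM against 172, 169 and 159 CPM (log2 fold change 0.05, SE 0.0308, edgeR adjusted p = 0.326). GATA2-AS1, which overlaps its locus in the other direction without sharing exon bases, was at 20.2 ± 0.368 and 20.2 ± 0.168 CPM. LDB1, the partner that links LMO2 complexes to each other, lies on chromosome 10 (102107560 to 102120453). It had 266, 266 and 260 CPM against 270, 270 and 258 CPM, with a log2 fold change of 0.01 (SE 0.0266, edgeR adjusted p = 0.794).

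Knockdown libraries 3_2 and 3_3 held the lowest 2 of the 9 knockdown values for every member except LMO2, called or not, and for LMO2 library 3_3 was lowest. Their log2 deviations from the knockdown mean were -0.0134 and -0.0153 for TAL1, -0.0196 and -0.0208 for RUNX1, -0.0465 and -0.0634 for GFI1B and -0.0421 and -0.0639 for LMO2. Among the members that were not called they ran from -0.0566 for LDB1 in 3_2 to -0.22 for ZFPM1 in 3_3. For KLF1 those libraries held the lowest 2 values of all 18, while 7 of the 9 knockdown libraries were above every scrambled library. GATA1, NFE2 and ZFPM1 also had 7 of 9 above every scrambled library, LDB1 had 4 and GATA2 had 3. Without libraries 3_2 and 3_3, 7 members were called raised and 2 lowered, where 32.0% of all genes were called. The additions were GATA1 (log2 fold change 0.13, adjusted p = 1.23e-10), KLF1 (0.14, 5.32e-10), NFE2 (0.12, 1.01e-09), ZFPM1 (0.11, 8.96e-05) and GATA2 (0.07, 0.00216), all in edgeR. Leaving out the lowest 2 knockdown values of a member raises its knockdown mean by construction. Replicate 3 was then library 3_1 alone, and the added calls are not separate support for a rise. Without the whole of knockdown replicate 3 the counts were again 7 raised and 2 lowered. That fit called 2484 raised and 2282 lowered among all 15678 genes, so calls became more frequent for genes in general.

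Libraries 3_2 and 3_3 also differed from the others in how counts varied with transcript GC content. The GC tilt of a library is the median log2 deviation from its group mean of the 10% of genes richest in GC less that of the 10% poorest. It was -0.213 and -0.257 in knockdown 3_2 and 3_3 and between -0.118 and 0.128 in the other 16 libraries. Within groups, KLF1 (transcripts 65.7% GC, richer than 97.3% of tested genes) varied with the tilt with r = 0.931 across 18 libraries, LDB1 with r = 0.906, NFE2 with r = 0.904, GATA1 with r = 0.881, ZFPM1 with r = 0.873, GFI1B with r = 0.863 and GATA2 with r = 0.862. TAL1 (r = 0.424), RUNX1 (r = 0.321, transcripts 50.9% GC) and LMO2 (r = 0.233) varied with it less closely. The order of these coefficients was not the order of GC content, since LMO2 (58.9% GC) was richer than NFE2 (56.8%) and GFI1B (55.8%), and TAL1 was at 55.6%. Libraries 3_2 and 3_3, outside the tilt range of the other 16, enter each of these coefficients and weigh heavily in them. Coefficients without these libraries, or within the scrambled group alone, are not given here and may be lower. The 18 libraries are also not independent, since 3 come from each biological replicate. After a correction for GC content, GATA1 (0.06, adjusted p = 0.00171), NFE2 (0.08, 8.45e-05) and KLF1 (0.06, 0.0115) were called raised beside LMO2 and GFI1B, with 31.6% of all genes called in that edgeR fit.

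**Figure D3:**
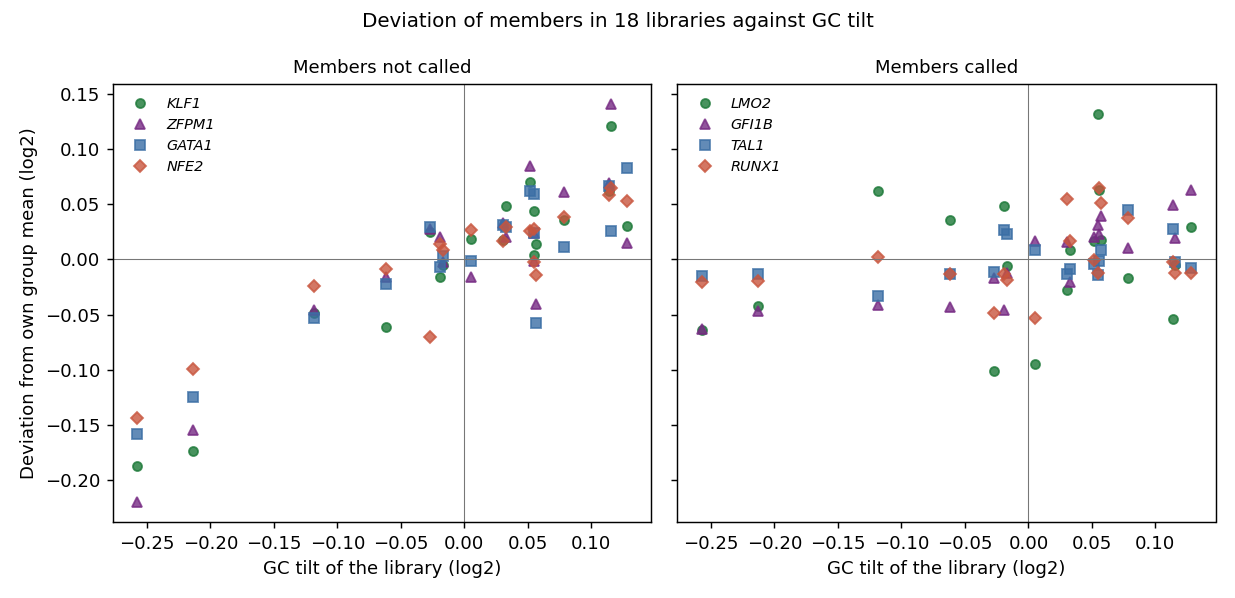
Deviation of a gene from its group mean in each of 18 libraries (vertical axis, log2) against the GC tilt of the library (horizontal axis, log2), for 4 members that were not called (left) and the 4 called members (right). The lowest points on the left are knockdown libraries 3_2 and 3_3, at tilts of -0.213 and -0.257, whereas LMO2, TAL1 and RUNX1 on the right vary little with the tilt.

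The 4 called members kept their direction and their call in each of 20 alternatives, with adjusted p of at most 0.0141 for TAL1, 0.00798 for RUNX1, 0.0002 for LMO2 and 0.000196 for GFI1B. Among these, the fit with libraries entered singly takes technical libraries as replicates, and sums by the second number mix biological replicates. Both can understate biological spread. In a test against a 1.2-fold change by edgeR's glmTreat, 0 of the 10 members passed, and 0 at an unadjusted p below 0.05, and no other tool was run against that fold.

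**Figure D4:**
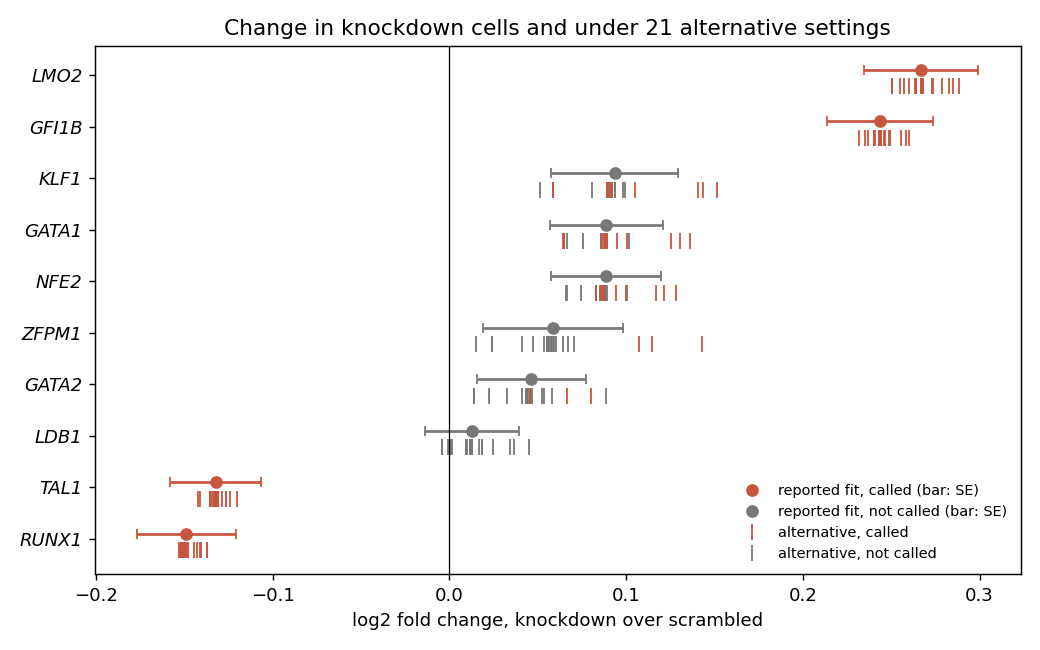
Log2 fold change of each gene, knockdown over scrambled (horizontal axis), with the reported value and its SE as a point and the 21 alternative settings as ticks below it, red where called. LMO2 and GFI1B lie between 0.23 and 0.29 and TAL1 and RUNX1 between -0.15 and -0.12 under all of them, while LDB1 straddles 0.

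Across 18 libraries, after removal of group means, the closest of 45 pairs of members were KLF1 with ZFPM1 (r = 0.947) and LDB1 with NFE2 (r = 0.897), and the lowest was TAL1 with LMO2 (r = -0.18). Knockdown libraries 3_2 and 3_3 were below the group mean for all 10 members and enter each of these values, and pairs of other genes were not examined. Counting error alone would give a spread between libraries (SD over the mean) of 1.35% for TAL1, and it was 1.64% in scrambled and 1.12% in knockdown libraries. For ZFPM1 the corresponding values were 2.37%, 2.46% and 7.74%, and for KLF1 1.75%, 2.30% and 7.27%.

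The sequence ahead of the start sites is shown for TAL1, RUNX1 and GFI1B, 3 of the 4 called members, since factors of this network are known to bind each other's regulatory regions. RefSeq promoters of GRCh38.p14 were matched for 8 of the 10 genes (not LMO2 or NFE2), at 11 start sites, and the 250 bases before each start were searched. Motifs were the GATA site AGATAA, the shorter GATAA (added after the sequences had been seen, and contained in the former), the E-box CANNTG, the RUNX site TGTGGT, the ETS site CCGGAAG, the GFI1B core AATCAC, the CACCC box CCACCC, the GC-rich box CCGCCC and the NF-E2 and AP-1 site TGAGTCA, on both strands. In the lines below, 5′ to 3′ on the gene's strand, capitals mark the GATA, E-box, RUNX, ETS and GFI1B matches, and bases inside annotated exons are left out.

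TAL1, first start, chr1:47232336-47232585, minus strand: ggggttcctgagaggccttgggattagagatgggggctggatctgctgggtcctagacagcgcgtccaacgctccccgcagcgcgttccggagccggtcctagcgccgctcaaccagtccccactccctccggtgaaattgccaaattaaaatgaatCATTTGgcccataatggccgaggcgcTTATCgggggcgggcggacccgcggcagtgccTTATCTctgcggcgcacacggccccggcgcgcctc
TAL1, second start, chr1:47231716-47231965, minus strand: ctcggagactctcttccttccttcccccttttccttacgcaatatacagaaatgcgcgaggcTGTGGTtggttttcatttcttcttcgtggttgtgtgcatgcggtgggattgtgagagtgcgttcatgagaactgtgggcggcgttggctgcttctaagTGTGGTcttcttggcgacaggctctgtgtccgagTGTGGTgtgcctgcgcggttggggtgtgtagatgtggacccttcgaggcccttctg
RUNX1, chr21:34888700-34888949, minus strand: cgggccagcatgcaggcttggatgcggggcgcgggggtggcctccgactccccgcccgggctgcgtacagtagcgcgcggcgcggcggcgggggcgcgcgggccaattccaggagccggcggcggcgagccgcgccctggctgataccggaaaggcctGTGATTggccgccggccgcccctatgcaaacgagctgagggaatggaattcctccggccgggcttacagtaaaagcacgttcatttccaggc
GFI1B, first start, chr9:132945376-132945530, plus strand: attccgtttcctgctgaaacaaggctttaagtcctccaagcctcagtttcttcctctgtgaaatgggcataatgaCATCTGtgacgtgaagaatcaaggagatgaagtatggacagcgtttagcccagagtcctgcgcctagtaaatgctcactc
GFI1B, second start, chr9:132978444-132978506, plus strand: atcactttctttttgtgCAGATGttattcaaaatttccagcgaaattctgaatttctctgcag

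The window of the first TAL1 start held AGATAA on the opposite strand 35 bases before the start, a second GATAA 67 bases before it, and an E-box. AGATAA occurred in 9.17% and GATAA in 20.4% of the 35116 promoters in the table, and an E-box in 61.8%. The second TAL1 window held TGTGGT 3 times, and 3855 of the 35116 promoters held that motif. The RUNX1 window held AATCAC on the opposite strand, 92 bases before the start (9.02% of all promoters). That window lies inside the annotated gene, whose upstream end at 36004667 was not searched. Both GFI1B windows likewise lie inside their gene, which begins at 132944000. E-boxes lay in both GFI1B windows, and the second also held GATAA 115 bases before the start, inside an annotated exon and so not printed. Among the other members, AGATAA was in no searched window, KLF1 had GATAA 66 bases before its start, and ZFPM1 had CCGCCC 7 times (42.6% of all promoters hold it). A match is a string of letters and does not show binding.

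Of the LIM and E-protein partners, 8 of 11 were tested and 1 was lowered, TCF4, an E protein that can pair with TAL1 (66.6 ± 1.88 to 61.6 ± 1.40 CPM, log2 fold change -0.11, edgeR adjusted p = 0.0224). The other E protein genes were not called, with TCF3 at -0.06 and TCF12 at -0.02, nor were the LDB1-binding genes SSBP2 (0.00139), SSBP3 (-0.02) and SSBP4 (0.0021), the LIM-only gene LMO4 (-0.05) or LYL1, the closest relative of TAL1 (0.02). The list median was -0.02, with 12.5% called beside 18.6% of all genes. TCF4 was not called without scrambled replicate 2, scrambled replicate 3 or knockdown replicate 2. MAFG (-0.09, adjusted p = 0.067), MAFK (-0.04) and MAFF (-0.09), whose small MAF products dimerise with NFE2, and CBFB (0.09, adjusted p = 0.115), whose product stabilises RUNX1 on DNA, gave 0 calls among 4 in edgeR and 0 in DESeq2, with 2 at an unadjusted p below 0.05 in each. The 3 knockdown values lay below all scrambled values for MAFG and above them for CBFB, and 34.6% of all genes did not overlap in this sense. Without knockdown libraries 3_2 and 3_3, 1 gene of these 4 was called raised and 1 lowered, in a fit that called 32.0% of all genes. Without knockdown replicate 1, 1 was called lowered.

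Of 25 paralogs of the members, 17 were tested, 1 was raised and 1 lowered (median -0.08), a share of 11.8% beside 18.6% of all genes. KLF6, a zinc finger relative of KLF1, fell from 45.8 ± 0.32 to 36.1 ± 1.44 CPM (SD, n = 3, log2 fold change -0.34, edgeR adjusted p = 7.32e-07), and NFE2L3 rose from 17.01 ± 0.408 to 19.04 ± 1.27 CPM (0.16, adjusted p = 0.0284). No paralog was called raised without any 1 of the scrambled replicates or without knockdown replicate 2. Of 20 corepressor genes 19 were tested, 2 were raised and 2 lowered (median -0.01), a share of 21.1% called beside 18.6% of all genes. RCOR1, a scaffold that joins GFI1B to the demethylase KDM1A, had a log2 fold change of -0.11 (adjusted p = 0.02) and IRF2BP2, a partner of ZFPM1 and NFAT proteins, of -0.09 (0.045), while MTA3 of the NuRD complex was at 0.16 (0.0202) and RCOR2, at 2.17 to 3.01 CPM, at 0.48 (0.00354). Without libraries 3_2 and 3_3 this list had 4 raised and 6 lowered, in a fit that called 32.0% of all genes, without knockdown replicate 3 it had 5 lowered, and without scrambled replicate 2 or 3 or knockdown replicate 1 or 2 it had 0 lowered. Without scrambled replicate 1, 2 or 3 or knockdown replicate 1 it had 1 raised. Without libraries 3_2 and 3_3 the paralogs had 2 raised and 3 lowered. Of 18 ETS, progenitor and megakaryocyte factors 14 were tested and 7.14% called, beside 18.6% of all genes (list median -0.00781). IKZF1, a zinc finger gene of blood cells, was the only call, at 149 ± 1.14 and 160 ± 2.03 CPM (0.10, edgeR adjusted p = 0.00952). It was not called without scrambled replicate 1 or 3. FLI1 and ERG, the ETS factors that pair with GATA1 in megakaryocytes, had at most 5 counts in any sample and were not tested.

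Known targets of the network include genes that rose and genes that fell. Like the other lists, the target lists were chosen with earlier results of these data known. Their shares of calls beside those of all genes are therefore description and not a test. Of 44 erythroid target genes 42 were tested, 13 were raised and 9 lowered, a share of 52.4% (median 0.02). Of all genes, 11.1% were raised and 7.49% lowered, 18.6% in both directions. DMTN, a membrane skeleton gene, rose from 24.1 ± 0.187 to 35.4 ± 1.22 CPM (SD, n = 3, 0.55), the anion exchanger gene SLC4A1 had a log2 fold change of 0.38, the embryonic globin gene HBZ of 0.30 and HBA2 of 0.14, with adjusted p of 0.000293 or less in edgeR. The near-identical copies HBA1 and HBA2 can share reads.

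Megakaryocyte targets had 6 raised and 3 lowered of 13 tested (28 listed, median 0.18), a share of 69.2% beside the same 18.6%. The platelet integrin genes ITGA2B and ITGB3 rose from 4.51 ± 0.0798 to 9.07 ± 0.352 CPM and from 8.46 ± 0.222 to 12.5 ± 0.317 CPM (log2 fold changes 1.01 and 0.56), the granule proteoglycan gene SRGN was at 0.29 and NBEAL2, needed for alpha granules, at -0.17. Progenitor targets of GATA2 had 4 lowered of 6 tested (10 listed, median -0.20), a share of 66.7% beside 7.49% lowered among all genes. EPAS1, a hypoxia-inducible factor gene, fell from 39.9 ± 1.82 to 30.02 ± 0.581 CPM (-0.41), the histamine synthesis gene HDC from 3.40 ± 0.234 to 2.07 ± 0.201 CPM (-0.72), and the receptor gene KIT from 5.84 ± 0.185 to 4.998 ± 0.396 CPM (-0.23, edgeR adjusted p = 0.0381), with ALDH1A1 at -0.18 (0.0256). GATA2 itself was not called. In each of these 3 target lists the counts moved by less than 1.5 times with the GC correction and without libraries 3_2 and 3_3. With a replicate left out they moved further. Erythroid targets raised numbered 7 without scrambled replicate 1 or 2 and 8 without scrambled replicate 3 or knockdown replicate 1 or 2, and those lowered numbered 4 without scrambled replicate 2. Megakaryocyte targets lowered numbered 1 without scrambled replicate 2, and progenitor targets lowered numbered 2 without scrambled replicate 1 or 2 or knockdown replicate 1 or 2. With technical library 1 only, those lowered numbered 1 and 2. In the test against a 1.2-fold change, erythroid targets had 1 raised and 0 lowered and megakaryocyte targets 2 raised and 0 lowered. Progenitor targets had 2 lowered there, and 157 of all genes were raised and 38 lowered.

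**Figure D5:**
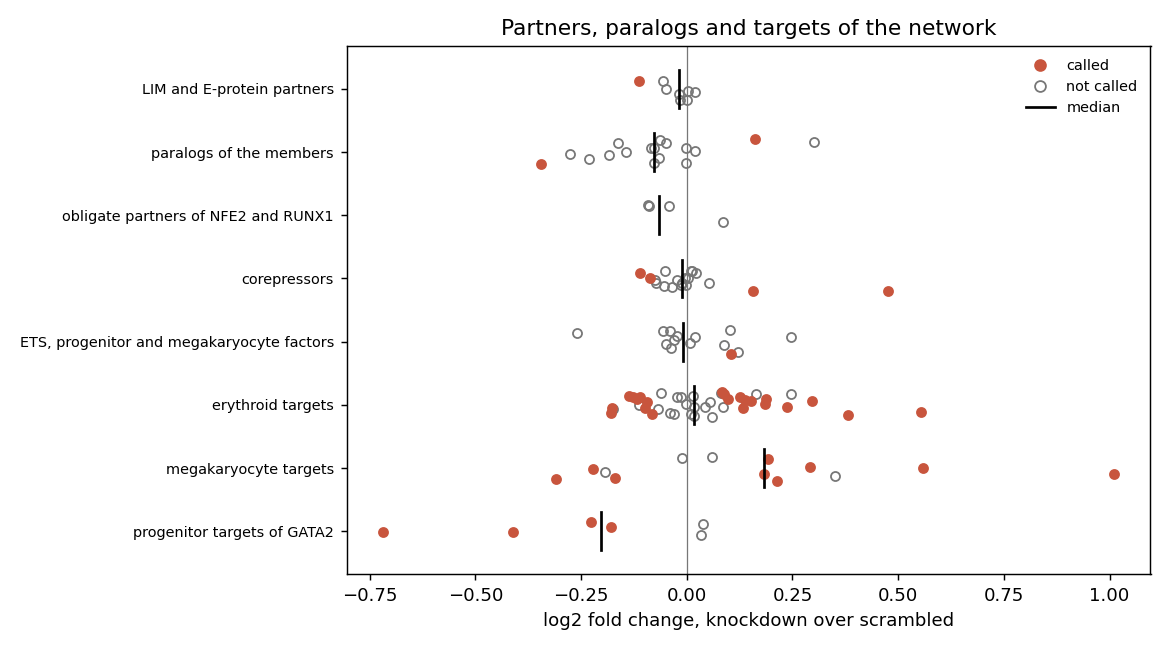
Log2 fold change (horizontal axis, knockdown over scrambled) of every tested gene in 8 lists of partners, paralogs and targets, with called genes in red, others open and list medians as black lines. Most partners lie near 0, and the widest spread is among megakaryocyte targets, with ITGA2B at 1.01, and progenitor targets of GATA2, with HDC at -0.72.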

How the data were processed

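Counts per gene symbol for 18 libraries were taken as deposited by the authors, as raw whole-number counts without normalization. Trim Galore, STAR and featureCounts are named, with the build GRCh38, per the submitters' processing notes. Tool versions, gene models and the strand used in counting were not given in the sources used here. A count per gene adds linear and circular RNA.

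Technical libraries were summed per biological replicate (the first number in the label), and 3 knockdown and 3 scrambled sums were compared by edgeR 4.0.16 under R 4.3.3. Genes were kept by filterByExpr, scaled by TMM and tested by the robust quasi-likelihood method, and p-values of the 15678 genes kept were adjusted by Benjamini-Hochberg. CPM use TMM-scaled library sizes, and fold changes come from the fit. The code was tested on simulated data. Technical and biological library pairs differed by similar amounts (chi-square per degree of freedom, median 2.26 and 2.11), so p-values measure a spread that may be largely technical.

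Coordinates, exon lengths and transcript GC content came from GENCODE release 29 (GRCh38), with a GC value for 96.4% of tested genes, and promoters from RefSeq. The members and lists were chosen with earlier results of these data known. Genes named were all 10 members, PCMTD1, all tested partners in 2 short lists, and up to 4 called genes per other list by smallest p. TSC1, GATA2-AS1, FLI1 and ERG were named after their values were seen. For 1 gene that the lists hold, values are not reported here. Alternatives used DESeq2 1.42.0, limma 3.58.1, other scaling factors, filters, library sums and samples, and a GC-content correction by lowess. Figures used matplotlib 3.10.9 in Python 3.11.15.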

Additional observations from a re-analysis of the deposited data

Results flagged for a closer look

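In 20 groups of 9 libraries (10 members, knockdown and scrambled), a single value stood apart by Dixon's ratio at its 95% critical value of 0.493. RUNX1 in knockdown library 3_1 was at 129.3 CPM, with the next highest knockdown library at 125 CPM and a gap of 0.571 of the range. About 1 in 20 such groups would be expected to show this by chance. The value is still below the lowest scrambled library, at 132 CPM.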

How the results depend on the processing

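Among 21 alternatives, the 4 calls lost their place only in the test against a 1.2-fold change, where members raised and lowered were 0 and 0 (157 and 38 of all genes). Members raised numbered 4 with upper-quartile factors, 5 with library totals only, without a count filter, with libraries entered singly, with limma-voom, with GC correction and with GC correction and the replicate block, 6 with libraries summed by the second number or with technical library 1 only, and 7 without knockdown libraries 3_2 and 3_3. They numbered 2 to 7 when a replicate was left out, the 7 without knockdown replicate 3, and members lowered were 2 in each of those fits. With a replicate left out LDB1 lay between -0.000669 (without knockdown replicate 2) and 0.0342, and it was -0.0042 with GC correction and -0.00424 with GC correction and block, not called in any. Of all genes, 1141 were raised with technical library 1 only and 1128 (without scrambled replicate 1) to 2484 (without knockdown replicate 3) with a replicate left out. Raised genes numbered 1745 in the reported fit, 1831 with upper-quartile factors, 1939 with library totals only and 1790 without a count filter. They numbered 2211 with libraries entered singly, 1872 with limma-voom, 2334 with GC correction and 2366 with GC correction and block. Fits with libraries summed by the second number and without libraries 3_2 and 3_3 had 2601 and 2593 raised. Lowered genes numbered 1175 in the reported fit, 1911 with libraries entered singly, 2392 summed by the second number, 2426 without libraries 3_2 and 3_3, 2614 with GC correction, 2686 with GC correction and block, and 617 to 2282 with a replicate left out (628, 617 and 734 without scrambled replicate 1, 2 and 3, and 2282 without knockdown replicate 3). The cause was not tested. With the replicate block on the first number, 5 members were raised, and of all genes 2213 were raised and 1772 lowered. Deviations of same-numbered samples correlated at 0.03, 0.011 and 0.011, and those of other pairs between -0.041 and 0.027. Not every sample correlated best with its own number. Coefficients this near 0, from 3 samples a group, cannot decide whether the numbers pair the samples. Raised genes made up 59.8% of calls, 67.3% with library totals only, 47.2% with GC correction, 46.8% with GC correction and block and 80.5% in the test against a 1.2-fold change. The median log2 change of all genes lay between -0.00109 and 0.0141 under the other scalings. Each member had at least 3992 counts in a sample, whereas FLI1 and ERG had too few to test.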
